A study of Mus musculus with 2 samples.

Results

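CGE-type interneurons are GABAergic neurons of the kind that comes from the caudal ganglionic eminence (CGE) of the embryonic brain, and a rule built on Adarb2, a gene of this lineage, was met by 381 of 31097 cells of aged mouse hippocampus. Of these, 24 control and 55 tomatidine cells carried factors of other brain regions and less of most CGE genes, as described below. Some cells with Lamp5 carried genes of another interneuron lineage, also described below. All 381 cells were chosen by their UMI counts, a UMI being 1 captured molecule. A cell with 2000 or more UMIs was taken as a member if Gad1 and Gad2 together had at least 5 UMIs, at least 3 per 10000 UMIs of the cell and more than Slc17a7 and Slc17a6 together, if Adarb2 had at least 3 UMIs and more than Lhx6, if Vip, Lamp5 and Cnr1 together had at least 5, and if Sst was below 10 per 10000. The control library gave 176 members of 15912 deposited cells, of which 13974 had 2000 or more UMIs, and the tomatidine library gave 205 of 15185, of which 13406 had that depth. These values chose the cells, so the levels of the rule's genes are given below as a description only.

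The study fed aged C57BL/6 mice, bought as wild type and of both sexes, and asked whether tomatidine, a steroidal alkaloid from tomato, acts on senescent cells and on brain ageing. Both libraries came from mice aged 21 months when the 3 months of feeding began. The control mice ate standard chow and the tomatidine mice ate chow with 0.05% tomatidine. Flash-frozen hippocampi of 4 mice were pooled for each group, fixed, dissociated and read with a probe panel, so that each group is 1 library and no difference between the groups has a replicate check. The sexes in each pool are not given in the sources used here, and UMIs of the Y-linked genes Ddx3y, Eif2s3y, Uty and Kdm5d were found in 96.0% of the control members and 96.1% of the tomatidine members. All intervals below are 95% intervals for counting error only, which leave out any difference between mice, dissections or library preparations, and tomatidine cannot be told apart from such a difference.

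Interneurons of the cortex and hippocampus release GABA and fall into a few lineages by birthplace. Cells from the CGE carry the RNA-editing family gene Adarb2 and the transcription factors Prox1, Nr2f2, Npas1 and Sp8, and many carry Htr3a, the serotonin-gated channel. Cells from the medial ganglionic eminence (MGE) carry Lhx6, Sox6 and Satb1 and give the Sst and Pvalb classes. Among CGE cells, those with the vasoactive intestinal peptide gene Vip mostly contact other interneurons, those with Lamp5 include neurogliaform cells that release GABA diffusely, and basket cells with the peptide gene Cck carry Cnr1, the cannabinoid receptor that damps their release.

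Members were deep cells. The median was 31737.5 UMIs in control members (2895 to 199136) and 29322 in tomatidine members (3433 to 350310), against 9242 and 9599 over all cells with 2000 or more UMIs. Cells that passed the Gad1 and Gad2 requirements had medians of 21880 and 18295.5 UMIs. Sst interneurons (40284 and 30171) and Pvalb interneurons (50209.5 and 49726), both defined below, were deeper than members, and the rule's UMI minimums favour deep cells. In members, medians of 7356 and 7358 genes were detected, and a median of 0.353% and 0.366% of UMIs came from mitochondrial genes. In all, members held 7793140 and 8871998 UMIs, and the deepest member supplied 2.56% and 3.95% of them. Barcodes shared by both libraries numbered 292 among deposited cells and 0 among members.

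Members made up 1.26% of cells with 2000 or more UMIs in control (exact Clopper-Pearson interval 1.08 to 1.46) and 1.53% with tomatidine (1.33 to 1.75), a difference of 0.270 points (Newcombe interval −0.00824 to 0.551). As a share of cells that passed the Gad1 and Gad2 requirements, 1074 and 1352 cells, they were 16.4% (14.2 to 18.7) and 15.2% (13.3 to 17.2), a difference of −1.22 points (−4.18 to 1.68). Both intervals include 0. The Gad cells themselves were 7.69% and 10.1% of cells, 2.40 points higher with tomatidine (1.73 to 3.08).

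The label was checked on genes the rule did not use. All members carried a UMI of Slc32a1, the vesicular GABA transporter, at 882 UMIs per 1000000 (CPM, from UMIs summed over the cells of a library) in control and 824 with tomatidine. Npas1 was found in 60.2% and 47.8% of members against 0.962% and 0.682% of oligodendrocytes, cells that should lack it and that show how much free RNA the droplets held at median depths of 6689 and 6268 UMIs. For Htr3a the shares were 62.5% and 49.8% of members against 1.44% and 0.682% of oligodendrocytes. Prox1 was found in 66.5% and 66.3% of members, but also in 76.1% and 75.7% of oligodendrocytes, at 270 and 281 CPM against 104 and 110 in members, so here it does not separate CGE cells from all other cells. Many members therefore carried CGE genes, and none of these 3 genes was detected in all of them.

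The members split into cells with forebrain interneuron factors and cells with factors of other brain regions. The split was made after the levels had been seen, by comparing UMIs of Dlx1, Dlx2, Dlx5 and Dlx6, homeobox factors of forebrain GABAergic neurons, with those of Gata2, Gata3, Tal1, Otx2, Sox14, Pax7, Irx1 and Irx2, factors known from GABAergic neurons of the midbrain, thalamus and hindbrain. More UMIs of the first set were found in 148 control and 147 tomatidine members (Dlx members), and more of the second set in 24 and 55 (Gata/Tal1 members), with 4 and 3 ties. Only 3 and 7 members held 3 or more UMIs of both sets, and 14 and 20 held fewer than 3 of each. The median Dlx member had 13.5 UMIs of the first set in control and 11 with tomatidine and 0 of the second, and the median Gata/Tal1 member had 36 and 27 UMIs of the second and 0 of the first.

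**Figure D1:**
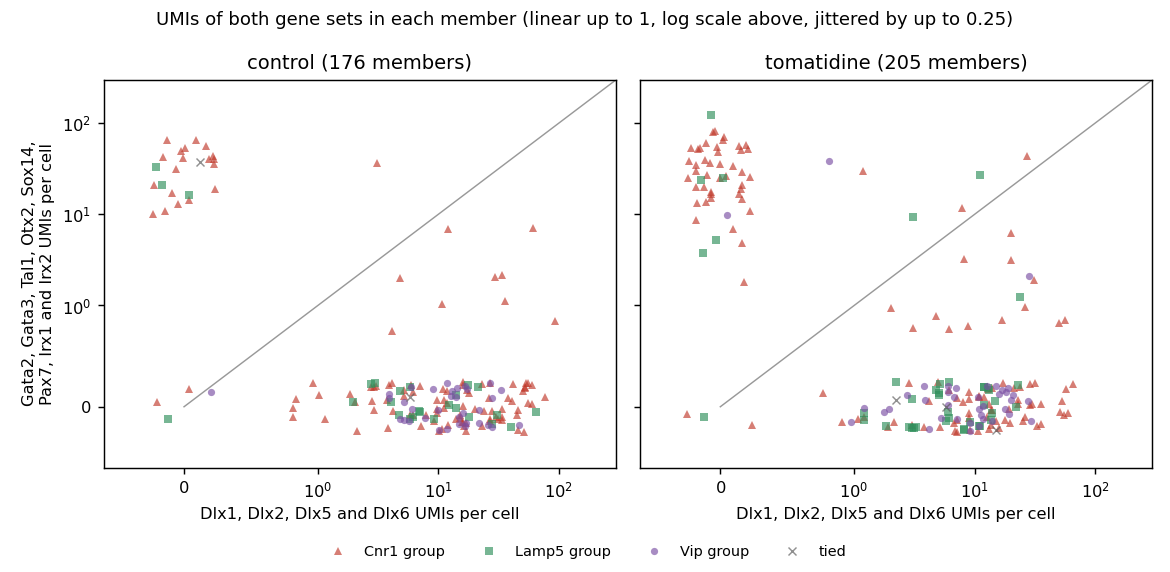
Each point is 1 member, placed by its UMIs of the Dlx genes (horizontal) and of the Gata/Tal1 genes (vertical), on axes that are linear up to 1 and logarithmic above, with a small jitter, and the grey line marks equal counts. The left panel holds the 176 control members and the right panel the 205 tomatidine members. Points lie along both axes with few between, and the upper left cloud holds most of the 24 control and 55 tomatidine Gata/Tal1 members.

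Gata/Tal1 members were 13.6% of control members (8.94 to 19.6) and 26.8% of tomatidine members (20.9 to 33.4), a difference of 13.2 points (5.09 to 20.9). Among all Gad cells the same split gave 17.9% and 49.9%, a difference of 32.0 points (28.5 to 35.5). Sst interneurons had 0 and 1 such cells and Pvalb interneurons 2 and 3. Both classes, defined below, were chosen by more Lhx6 than Adarb2, so these low counts are not read as a contrast. The libraries thus held different amounts of Gata/Tal1 cells, and with 1 library per group the diet and the tissue taken at dissection cannot be told apart. Because of this, most comparisons of the libraries below are given for all members and for Dlx members alone. In the members with at most 6000 genes, the upper limit of the study's quality filter, the difference was 1.49 points (−7.70 to 10.2) among members and 28.3 points (23.1 to 33.1) among Gad cells. Most Gata/Tal1 members had more genes than that, so the value among members rests on few cells. It cannot show whether the difference among members holds under that limit. Dlx members were 1.06% and 1.10% of cells, a difference of 0.0374 points (−0.208 to 0.284). Of the Gad cells with more Dlx UMIs, 718 in control and 508 with tomatidine, they were 20.6% and 28.9%, a difference of 8.32 points (3.43 to 13.3), so the size of the difference depends on which cells are counted as the whole.

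Gata/Tal1 members had less of most CGE genes than Dlx members although they passed the rule. In them Htr3a had 11.8 CPM in control and 20.9 with tomatidine, against 581 and 517 in Dlx members. Npas1 had 1.48 and 11.9 CPM against 289 and 285, and Sp8, a factor of late-born CGE cells, had 0.738 and 0.290 against 88.0 and 76.1. Other CGE factors were less reduced, with Prox1 at 43.5 and 27.5 CPM against 117 and 161 and Nr2f1 at 67.2 and 52.8 against 103 and 128. Nr2f2 had 114 CPM against 113 in control and 49.0 against 158 with tomatidine, and 3 or more Prox1 UMIs were found in 6 of 24 control and 14 of 55 tomatidine cells. In the other direction, Gata3 had 125 and 130 CPM, Tal1 109 and 82.3 and Sox14 100 and 92.2. Outside the genes of the split, the Wnt effector Tcf7l2 had 773 and 481 CPM against 19.2 and 10.6 in Dlx members, and the nicotinic subunit gene Chrna6 had 27.3 and 29.3 against 0.156 and 0.186. The parvalbumin gene Pvalb had 193 and 721 CPM against 30 and 16.2, although 1 tomatidine cell held 46.2% of its UMIs in that library's Gata/Tal1 members. Gata/Tal1 members entered through lower levels of the rule genes, with Adarb2 at 178 and 184 CPM against 707 and 767 and Cnr1 at 272 and 222 CPM against 4803 and 4181. At such levels the rule's UMI minimums keep the deeper cells. The median UMIs of Gata/Tal1 members were 51211 and 46551 against 27786.5 and 22941, so this order is not read as a trait. Over all Gad cells the order was the opposite, with 22901 and 19883 against 27610 and 23698.

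Each member was put in the group of whichever of Vip, Lamp5 and Cnr1 had the most UMIs. The Vip group held 34 control and 39 tomatidine members (19.3% and 19.0%), the Lamp5 group 26 and 41 (14.8% and 20%) and the Cnr1 group 114 and 122 (64.8% and 59.5%), with 2 and 3 ties. The differences of −0.294 points (−8.33 to 7.56), 5.23 points (−2.51 to 12.7) and −5.26 points (−14.8 to 4.51) all have intervals that include 0. Within Dlx members the shares were 22.3% and 25.2% for Vip, 14.9% and 22.4% for Lamp5 and 62.2% and 50.3% for Cnr1. There the Cnr1 difference was −11.8 points (−22.7 to −0.510), and the Lamp5 difference was 7.58 points (−1.34 to 16.4). Gata/Tal1 members sat mostly in the Cnr1 group, with 20 of 114 control cells (17.5%) and 46 of 122 tomatidine cells (37.7%).

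Vip and Lamp5 were seldom found together and Cnr1 ran across both. In the Vip group, Vip had a median of 90.9 UMIs per 10000 in control (33.7 to 217) and 61.7 with tomatidine (0.35 to 248). Of these cells 33 of 34 and 36 of 39 also had 5 or more Cnr1 UMIs, and 0 had 5 or more Lamp5 UMIs. In the Lamp5 group, Lamp5 had medians of 9.28 (0.648 to 27.9) and 11.2 (0.343 to 26.9), and 12 of 26 and 18 of 41 cells had 5 or more Cnr1 UMIs. In the Cnr1 group, Cnr1 had medians of 38.6 (0.771 to 232) and 16.5 (0.561 to 157), and 14 and 8 cells had 5 or more Vip UMIs while 18 and 21 had 5 or more Lamp5 UMIs. The winning gene led the next by 2-fold or more in 27 and 34 Vip, 20 and 34 Lamp5 and 104 and 112 Cnr1 cells. After thinning each cell to 2000 UMIs, 146 of 176 and 145 of 205 members kept their group and 23 and 46 became ties, so the assignment of shallow cells or of cells with few of these UMIs is uncertain.

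**Figure D2:**
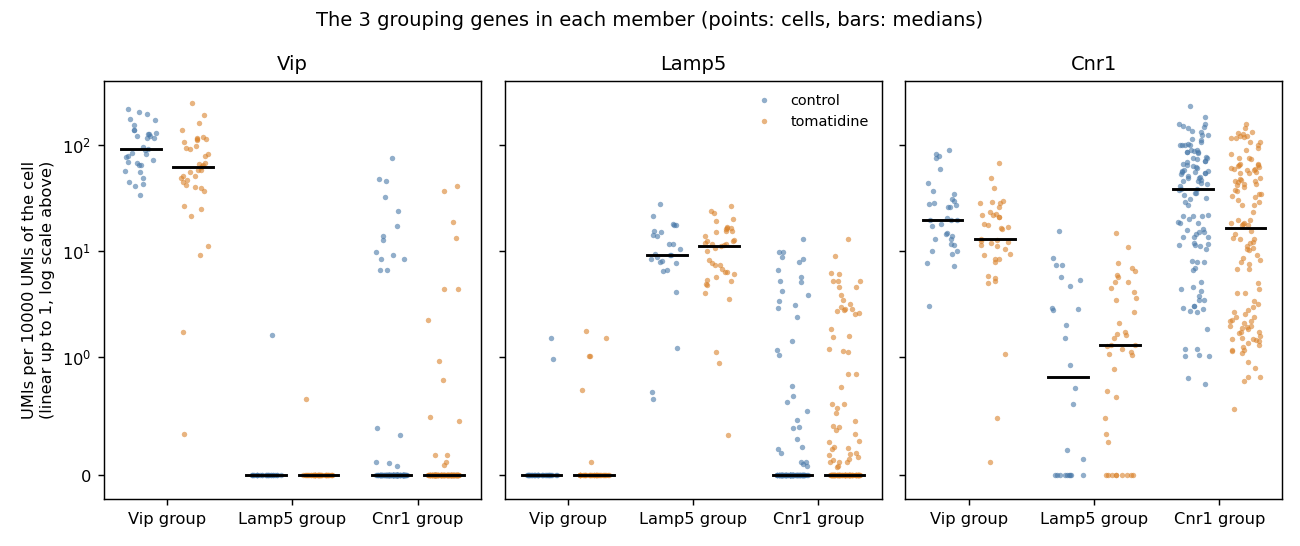
Vip, Lamp5 and Cnr1 in UMIs per 10000 UMIs of the cell (vertical, linear up to 1 and logarithmic above) for the members of each group (horizontal), with control in blue, tomatidine in orange and bars at the medians. Vip and Lamp5 have medians of 0 outside their own groups, although single cells of the Cnr1 group reach 75.6 for Vip and 13.2 for Lamp5, while Cnr1 has medians of 19.7 and 13.0 in the Vip group, and in the Cnr1 group its median is 38.6 in control and 16.5 with tomatidine.

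Cnr1 itself was spread over a wide range, and most low cells of the Cnr1 group were Gata/Tal1 members. Its median was 50.6 UMIs per 10000 in the 92 control and 44.1 in the 74 tomatidine Dlx cells of the group, against 3.07 in the 20 control and 1.87 in the 46 tomatidine Gata/Tal1 cells. Below 5 per 10000 lay 4 and 3 of the former and 15 and 39 of the latter. The number of probes for each gene is not given in the files, so where a gene is named as having the most UMIs of a list this is a count and not a comparison of expression between genes. The genes lie on mm10 (gene spans of GENCODE M21) at chr13:8202866-8768747 for Adarb2 (plus strand), chr10:5639218-5647617 for Vip (plus), chr2:136052239-136069917 for Lamp5 (plus) and chr4:33924593-33948831 for Cnr1 (plus), and the gene that marks the other lineage, Lhx6, at chr2:36081953-36105408 (minus). The 2 genes of GABA synthesis lie at chr2:70553072-70602014 for Gad1 (plus) and chr2:22622205-22693874 for Gad2 (plus).

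The Vip group was the richest in Prox1 and carried a further set of peptides. In its Dlx cells Prox1 (chr1:190118035-190170714, minus strand) had 410 CPM in control and 583 with tomatidine, against 97.7 and 148 in the Lamp5 group and 73.0 and 90.1 in the Cnr1 group. Calb2, the calretinin gene, had 1377 and 1569 CPM against at most 153 in the other groups. Penk, the enkephalin precursor, had 1135 and 1661 CPM and Crh, the corticotropin-releasing hormone, 195 and 314 CPM, and Crh was at 0 in the Lamp5 group of both libraries. All of these were higher in the Vip group in both libraries. The genes of acetylcholine handling stood in the same group. Slc5a7, the choline transporter, had 65.9 and 79.5 CPM, Slc18a3, the vesicular acetylcholine transporter, 28.4 and 33.6 CPM and Chat, the synthetic enzyme, 16.8 and 15.3 CPM, where 1 cell held 76.9% and 60.0% of the Chat UMIs.

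The Vip group was not uniform. Calb2 reached 3 UMIs in 22 of 33 control and 27 of 37 tomatidine Dlx cells of the group, and Cck in 14 of 33 and 6 of 37. Cck, the cholecystokinin gene (chr9:121489824-121495694, minus), had 1841 CPM in these control cells and 540 with tomatidine, where 1 cell held 64.3% of its UMIs. By the rule for group genes, which takes those highest over both other groups in the library where the ratio is smaller, the Vip group with all its members was led, after Vip, by Pthlh, Slc5a7, the bombesin receptor gene Grpr, Sema5b, Gpd1, Wnt5b, Fbln2, Crh and Penk. In its Dlx cells alone Pthlh came first, and Cbln4, Tpbg and Calb2 took the places of Fbln2, Crh and Penk. Pthlh, a parathyroid hormone relative, had 158 CPM in control and 131 with tomatidine over all members of the group, against 2.45 and 3.25 in the other groups together.

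The Lamp5 group was the one with Npy and with a few MGE genes. Npy, neuropeptide Y (chr6:49822710-49829507, plus), had 3832 CPM in control and 2928 with tomatidine in its Dlx cells, against 474 and 617 in the Cnr1 group and 72.4 and 70.3 in the Vip group. Id2 had 1264 and 1433 CPM, against at most 382 elsewhere, and Cplx3, a complexin of the release machinery, 314 and 463 CPM against at most 71.9. Nos1, the neuronal nitric oxide synthase, had 195 and 299.96 CPM against 120 and 112 in the Vip group and 22.3 and 35.6 in the Cnr1 group. Npas1, by contrast, had 9.30 and 0.974 CPM in the Lamp5 group against 306 and 272 in the Vip group and 338 and 374 in the Cnr1 group. The Lamp5 cells were thus low in Npas1 and high in Npy, Id2 and Cplx3 in both libraries.

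The MGE factor Nkx2-1 (chr12:56531958-56536908, minus) had 50 and 59.4 CPM in the Lamp5 group and at most 1.89 in the others, and Lhx6 had 74.4 and 77.9 CPM against at most 4.42. A Lhx6 UMI was found in 36.4% and 30.3% of the Dlx Lamp5 cells. For these cells CGE-type is the name of the rule, and their birthplace was not tested. The rule required Adarb2 to exceed Lhx6, so cells with more Lhx6 than Adarb2 are not in these counts. With 3 or more UMIs, Lhx6 was present in 5 of 22 control and 9 of 33 tomatidine Lamp5 cells and all of them also had Npy, and Nos1 and Npy occurred together in 12 of 22 and 24 of 33. Npy by itself was at that level in 21 of 22 and 30 of 33 of these Lamp5 cells. Its overlap with Lhx6 or Nos1 is thus near its share over the whole group. Both pairs of genes were picked after the values were seen. Ndnf, a secreted factor of neurogliaform cells, reached 3 UMIs in 7 of 22 and 18 of 33 cells, and Reln, the secreted glycoprotein reelin, in 12 and 24. Other genes that led the group with all its members were Nmbr, Slc35d3, Crispld1 and Hapln1, of which Hapln1 was not among the leading 10 in Dlx cells alone, and Nmbr, the neuromedin B receptor, had 136 and 93.7 CPM over all Lamp5 members against 6.60 and 4.59.

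Htr3a separated the groups less evenly. It had 667 and 772 CPM in the Vip group and 630 and 625 CPM in the Cnr1 group. In the Lamp5 group it had 241 CPM in control, of which 1 cell held 95.7%, and 10.7 CPM with tomatidine. That same control group had 244 CPM of Cxcl14, a chemokine gene, of which 1 cell held 99.5%. Both values of the control Lamp5 group therefore rest on 1 cell each.

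The Cnr1 group held cells with the genes of Cck basket cells. Cck had 1889 CPM in control and 2528 with tomatidine in its Dlx cells, against 265 and 373 CPM in the Lamp5 group. In control the Vip group had nearly as much Cck, as given above, so Cck did not separate these groups there. Sncg, gamma-synuclein, had 118 and 259 CPM in the Dlx cells of the Cnr1 group. Of the cells with 3 or more Sncg UMIs, 24 of 30 control and 28 of 28 tomatidine cells also had Cck. Over all Dlx cells of the group, Cck reached 3 UMIs in 62 of 92 and 47 of 74. Slc17a8, the vesicular glutamate transporter VGLUT3 (chr10:89574020-89621253, minus), had 234 and 211 CPM against 2.59 and 0 in the Vip group, and 16 of 18 and 7 of 7 cells with it had Cck. In each library 1 cell held much of the Slc17a8 (34.1% and 34.8% of its UMIs over Dlx members). Krt73, a keratin gene of these basket cells, had 195 and 332 CPM, and over all members 1 tomatidine cell held 59.6% of it. Npas1 and Htr3a occurred together in 46 of 92 and 44 of 74 cells of the group. The group also had Ndnf, at 431 and 358 CPM, and Reln, at 284 and 474 CPM. Of its 31 control and 23 tomatidine cells with 3 or more Ndnf UMIs, 18 and 10 also had 3 or more Cck UMIs, and of its 41 and 41 Reln cells 25 and 26 did. These counts stand beside the 62 of 92 and 47 of 74 over the group.

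**Figure D3:**
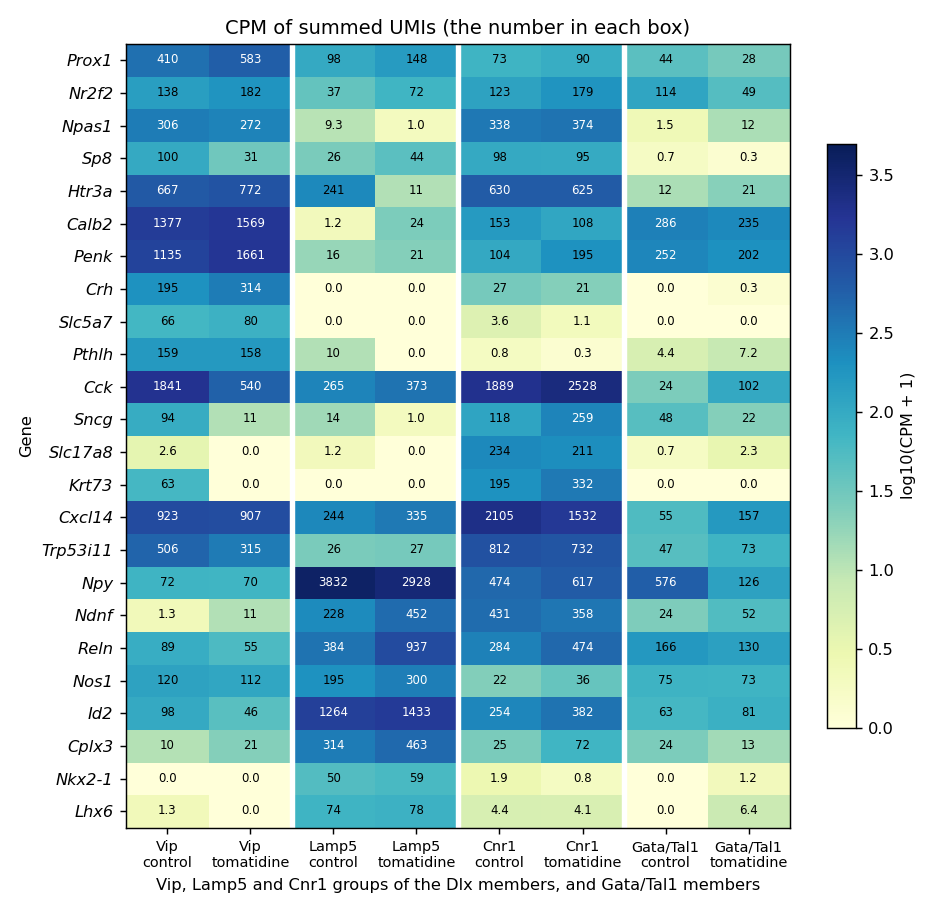
CPM of 24 genes (rows) in the Vip, Lamp5 and Cnr1 groups of Dlx members and in all Gata/Tal1 members, 1 column for each library, with the value in each box and colour for log10(CPM + 1). Calb2, Penk and Crh are highest in the Vip columns, Npy, Id2, Cplx3 and Nkx2-1 in the Lamp5 columns and Slc17a8 and Krt73 in the Cnr1 columns, while Npas1, Sp8 and Htr3a have at most 20.9 CPM in Gata/Tal1 members.

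The genes that led the Cnr1 group over all members were not all of this basket cell kind. Besides Slc17a8 they were Pax3, Tnc, Calca, Calcb, Rnf148, P2ry1, Prss23, Ibsp and Prkcd. Pax3, a factor of dorsal midbrain and hindbrain, had 14.4 and 20.4 CPM in the group and 0 in the others, and it left the list when only Dlx members were ranked. Calca and Calcb, the calcitonin gene-related peptides, had 41.1 and 17.5 CPM and 11.4 and 21.4 CPM, with 1 cell holding 32.2% and 35.7% and 23.9% and 53.3% of their UMIs. Several leading genes of the group therefore rest on few cells.

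Cells just outside the rule differed with the limit they missed. Adarb2 alone, at 1 or 2 UMIs, kept out 44 control and 66 tomatidine cells, which had 43.8 and 55.5 CPM of Htr3a against 479 and 326 in members. The 22 and 29 members just inside, at 3 or 4 Adarb2 UMIs, had 59.6 and 152 CPM of Htr3a. The sum of Vip, Lamp5 and Cnr1 alone kept out 46 and 121 cells, with 0.552 and 3.60 CPM of Htr3a and 19.9 and 27.3 CPM of Prox1. The 9 and 14 members just inside that limit, with 5 or 6 UMIs, had 22.3 and 0 CPM of Htr3a. Members near either limit had less Htr3a than members as a whole. The comparison with Slc17a7 and Slc17a6 alone kept out 36 and 35 cells, which had 172 and 152 CPM of Htr3a, the comparison with Lhx6 kept out 12 and 12, and the Sst limit 0 and 3.

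Beside the MGE classes, most listed CGE factors were higher in members in both libraries, and Sox6, Satb1 and Maf were lower. Sst interneurons (143 and 138 cells) and Pvalb interneurons (102 and 93 cells) were Gad cells with more Lhx6 than Adarb2, with Sst at 10 or more per 10000 or with 5 or more Pvalb UMIs and Sst below that. Prox1 was higher in members than in Sst interneurons by 2.41 on the log2 CPM scale in control and 2.66 with tomatidine, and than in Pvalb interneurons by 2.12 and 3.05. For Sp8, with 2 to 5 UMIs in each class and library, the log2 ratios were 8.05 (6.19 to 11.10) and 5.76 (4.52 to 7.39) over Sst and 7.21 (5.65 to 9.49) and 7.08 (5.22 to 10.13) over Pvalb cells, and for Htr3a they were 4.44 and 5.64 and then 8.19 and 8.08. Npas1 stood 1.75 and 0.88 above Sst cells and 4.88 above tomatidine Pvalb cells, and control Pvalb cells had 1 Npas1 UMI, which leaves the ratio between 8.03 and 15.81. Nr2f2, Nr2f1, Npas3, Nfib and Nfix were also higher than in both classes in both libraries, whereas Sp9 was lower (−0.90 and −0.74 over Sst and −0.83 and −1.13 over Pvalb cells) and Egr1, which is also an immediate early gene, had no single direction. Of the factors that keep MGE cells apart, Sox6 had log2 ratios of −3.67 and −3.88 over Sst cells and −3.88 and −3.97 over Pvalb cells, and Satb1, a chromatin organizer, −2.66 and −3.19 and then −1.68 and −2.34. Nkx2-1, which stood in the Lamp5 group, was higher in members than in Sst cells (4.08 and 5.48) and slightly higher than in Pvalb cells (0.45 and 0.27), and Erbb4, a neuregulin receptor gene, was higher than in Sst cells (1.09 and 0.64) and lower than in Pvalb cells (−1.01 and −1.20). Adarb2, Lhx6, Sst, Vip and Cnr1 separate these cells by construction.

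Some genes lay between the MGE classes and others above both. Npy was lower in members than in Sst interneurons (log2 −2.03 and −1.82) and higher than in Pvalb interneurons (2.92 and 1.66). Reln had the same pattern, with −1.01 and −0.38 and then 4.97 and 3.70. Cck was higher than in either class, by 4.76 and 4.06 and by 2.56 and 2.30, and so was Cxcl14, by 6.18 and 4.56 and by 6.90 and 5.62. By the rule for named genes, the strongest over Sst cells after Adarb2 were Glp1r, the receptor of glucagon-like peptide 1, with 13.3 and 13.3 CPM in members (1 cell held 34.6% and 26.3% of it), Sp8, the nicotinic subunit gene Chrna3 and Frem1, and the most reduced besides Sst were Crhbp, Gna14, Layn and Dmrt2. Crhbp, which binds corticotropin-releasing hormone, had 5.65 and 7.66 CPM in members against 1003 and 693 CPM in Sst interneurons and 388 and 566 CPM in Pvalb interneurons. Ranked with Dlx members alone, the strongest over Sst cells after Adarb2 were Sp8, Frem1, Vip, Cplx3, Sema3c and Tac2, Glp1r and Chrna3 were not among the leading 10, and Sst, Crhbp and Gna14 remained the lowest.

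**Figure D4:**
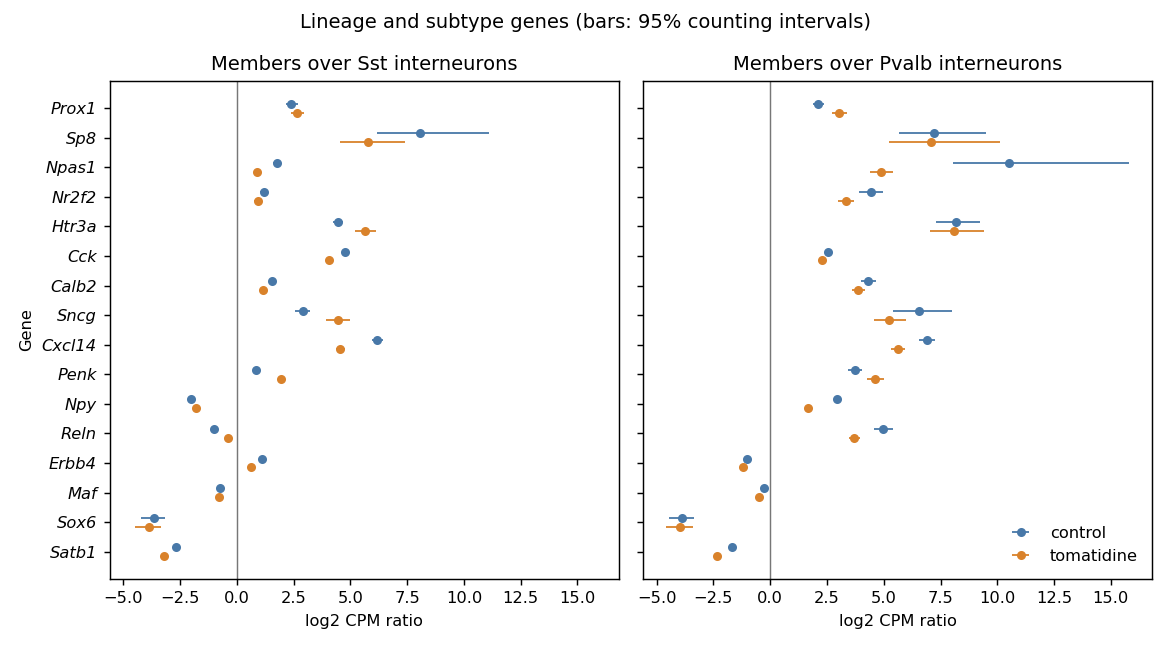
Log2 CPM ratio (horizontal) of members over Sst interneurons (left) and over Pvalb interneurons (right) for 16 lineage and subtype genes (vertical), control in blue and tomatidine in orange, with bars for 95% counting intervals. Prox1, Sp8, Npas1, Nr2f2 and Htr3a lie to the right of 0 and Sox6 and Satb1 to the left in both panels and both libraries, and Npy and Reln change sides between the panels.

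Between the libraries most genes of the members had like levels. Over 10758 genes with 100 or more UMIs the median log2 CPM ratio of tomatidine to control was 0.02, 228 genes (2.12%) were at least 1.5-fold higher with tomatidine and 166 (1.54%) at least 1.5-fold lower. In Dlx members 143 of 10112 genes (1.41%) were at least 1.5-fold higher and 133 (1.32%) lower, with a median of 0.02. These are counts of genes past a fold in a single pair of libraries, and no test stands behind them.

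Golm1, which encodes a Golgi membrane protein, was the lowest with tomatidine among genes that no single cell dominated. It had 70.2 CPM in control and 31.3 with tomatidine, a log2 ratio of −1.16 (−1.38 to −0.95). It was lower in each group, by −1.27 in the Vip, −1.28 in the Lamp5 and −1.13 in the Cnr1 group, and in Dlx members it had 83.2 and 43.0 CPM (−0.95, −1.18 to −0.73). Serpine2, a secreted protease inhibitor, had 369 and 193 CPM (−0.94, and −0.73 in Dlx members). Other low genes were Bmp3 (−1.08, and −0.69 in Dlx members), Cacng5 (−1.04, −0.75), Cntnap3 (−0.99, −0.67), Col9a3 (−0.98, −0.86) and Scamp2 (−0.98, −1.02). These low genes thus had the same direction in Dlx members, which are most of the members and so no separate check. By group, Cntnap3 was not lower in the Vip (0.25, −1.09 to 1.62) or the Lamp5 group (0.0063, −0.83 to 0.87). Bmp3 had 0 control and 3 tomatidine UMIs in the Vip group. The other low genes named had negative ratios in each group. In the 48 control and 56 tomatidine members with at most 6000 genes, Serpine2 (1.57, 1.19 to 1.97) and Cacng5 (1.10, 0.19 to 2.10) were instead higher with tomatidine. Cntnap3 there had a ratio of 0.21 (−0.76 to 1.22), an interval that includes 0.

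The high genes depended more on which members were counted. Mgat4c, a glycosyltransferase gene, had 18.1 CPM in control and 37.5 with tomatidine (log2 1.05, 0.76 to 1.35), but 13.0 and 17.9 CPM in Dlx members (0.46, 0.02 to 0.90). Mpp7, a scaffold gene, had a ratio of 0.99 over all members and 0.12 in Dlx members, and Epb41, a membrane skeleton gene, 0.97 and 0.14. Pradc1 (1.0 and 1.33), Ptpn21 (0.92 and 1.11) and Adamts16 (0.92 and 0.87) were about as far apart in both sets, and Cdh18 (0.88 and 0.57) and Mapk12 (0.96 and 0.80) were in between. The ranking within Dlx members took only genes that met the UMI minimum for rankings and that no single cell dominated. Pradc1 and Ptpn21 were outside it, since in control Dlx members a single cell held 12% and 13.6% of their UMIs. The highest gene in this ranking was Tox3, an HMG-box gene, with 17.4 and 37.2 CPM (1.10, 0.76 to 1.45). Next came Neurl1b, Cdh20, Kirrel, the nuclear receptor gene Nr2e1, Cep44, Zfp811 and Intu. The ratios from Tox3 to Intu ran from 1.10 down to 0.84. In members with at most 6000 genes, from few UMIs, the ratios over all such members turned to −1.01 (−2.40 to 0.30) for Epb41, −0.37 (−4.16 to 3.41) for Mapk12, −0.57 (−2.26 to 1.09) for Neurl1b and −0.0018 (−0.98 to 1.0) for Kirrel, and each of these intervals includes 0. The low genes of that ranking after Golm1 were Tiam2 (−0.83), Fam222a (−0.82), Slc4a2 (−0.81), Syndig1, Cacng5 and Ccl25 (each −0.75). Slc4a2, an anion exchanger gene, had 24.4 and 14.0 CPM in Dlx members but 26.8 and 28.4 CPM over all members (0.08).

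The genes of the Cnr1 group were lower with tomatidine over all members, but less so in Dlx members. Of 12 genes listed for Cck basket cells with 20 or more UMIs, 10 were lower and 2 higher, and their median log2 ratio was −0.55, beside 0.02 over all 12648 genes of that depth, and 4 of the 12 were at least 1.5-fold lower (1.54% of all genes with 100 or more UMIs). Cnr1, which chose the members, is 1 of these 4, and without it the median of the other 11 was −0.54. In Dlx members 7 were lower and 5 higher, the median was −0.18, and none was at least 1.5-fold lower (1.32% of all genes there). Cnr1 had 4002 CPM in control and 2633 with tomatidine over all members (−0.60) and 4803 and 4181 CPM in Dlx members (−0.20, −0.23 to −0.18). Cck had −0.24 over all members and 0.15 in Dlx members, and Sncg 0.34 and 0.81. Trp53i11 and Rgs12, a regulator of G protein signalling, had −0.31 and −0.32 in Dlx members. These ratios take in the number of Cnr1 group cells, which were 62.2% of control and 50.3% of tomatidine Dlx members. Within those Dlx cells the levels given above went both ways. Cck, Sncg and Krt73 were higher with tomatidine, and Slc17a8 and Htr3a were lower.

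The genes of the Lamp5 group were mostly higher with tomatidine. Of 14 listed genes, 10 were higher and 4 lower and the median was 0.12, and in Dlx members 13 were higher and 1 lower and the median was 0.53, and 5 were at least 1.5-fold higher (1.41% of all genes there). Reln had 276 and 509 CPM in Dlx members (0.88, 0.79 to 0.97), Cplx3 63.8 and 143 CPM (1.17), Kit, the stem cell factor receptor, 262 and 428 CPM (0.71), Nos1 57.4 and 95.6 CPM (0.74) and Sv2c, a vesicle protein gene, 47.5 and 80.5 CPM (0.76). Ndnf had 354 and 343 CPM (−0.04). These sums take in the number of Lamp5 cells, 22 of 148 control and 33 of 147 tomatidine Dlx members, and its part in the ratios of Dlx members was not tested. Over all members, the same mix of the 3 groups in both libraries left the 21 main values recomputed within their interval or 1.5-fold. Within those Lamp5 cells levels went both ways. There Reln had 384 and 937 CPM, Ndnf 228 and 452, Kit 774 and 1013, Cplx3 314 and 463 and Nos1 195 and 299.96, whereas Npy had 3832 and 2928, Lamp5 1227 and 1106 and Sv2c 257 and 248. A different mix of cells and a different level per cell both enter the sums, and fewer cells of a kind and less RNA in each cannot be told apart in them.

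The genes of the Vip group and the CGE factors were mixed. Of 12 Vip group genes 3 were higher and 9 lower (median −0.25), and 6 were higher and 6 lower in Dlx members (−0.00024). Vip, which chose the members, is 1 of these, and without it the median of the other 11 was −0.15, and 0.06 in Dlx members. Vip had 1301 and 1023 CPM in Dlx members (−0.35), whereas Tac2, the neurokinin B gene, had 253 and 497 CPM (0.98) and Penk 217 and 338 CPM (0.64). The direction of Tac2 depended on the cells counted, since its ratio was 0.54 over all members but −0.51 (−0.62 to −0.40) with the study's other thresholds. Of the 10 CGE factors, 5 were higher and 5 lower in both sets, and the medians were −0.06 and 0.15. Prox1 had 117 and 161 CPM in Dlx members (0.46, 0.32 to 0.60), Nr2f2 113 and 158 CPM (0.48) and Nfix 210 and 347 CPM (0.72), whereas Npas1 had 289 and 285 CPM (−0.02) and Sp8 88.0 and 76.1 CPM (−0.21). Of the 7 MGE lineage genes with 20 or more UMIs, 2 were higher and 5 lower (−0.29, and −0.09 in Dlx members, but 0.05 in members with at most 6000 genes). Lhx6, which the rule used, is 1 of these, and without it the median of the other 6 was −0.34, and −0.47 in Dlx members.

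**Figure D5:**
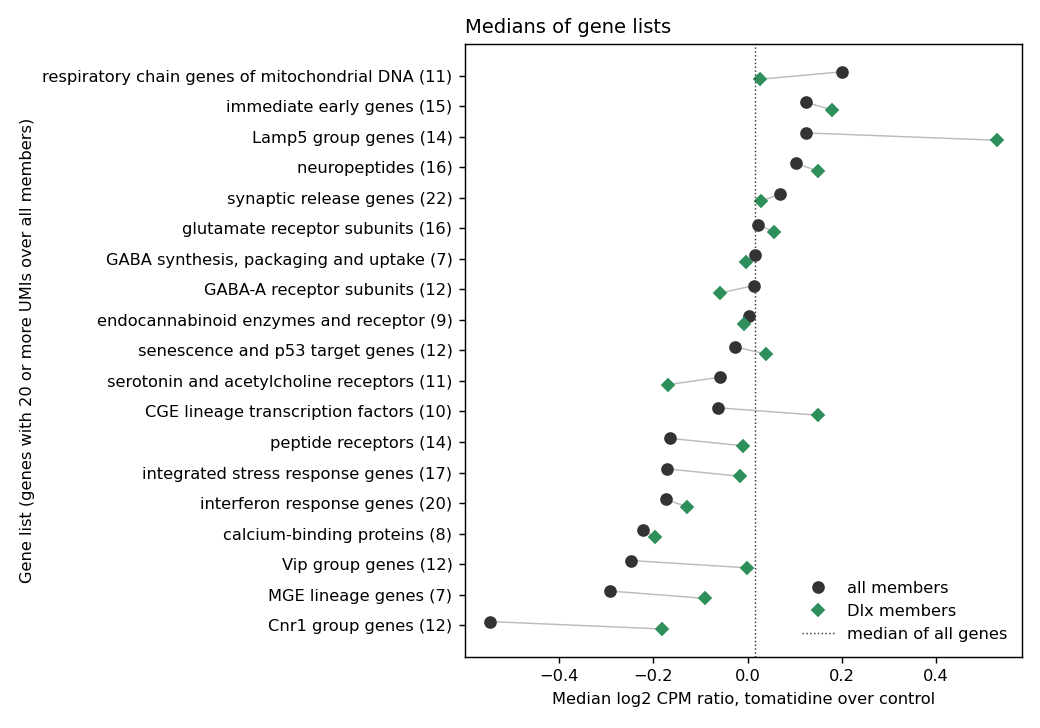
Median log2 CPM ratio of tomatidine over control (horizontal) for each gene list (vertical, with its number of genes of 20 or more UMIs), for all members (circles) and Dlx members (diamonds), with a dotted line at the median of all genes. The lists of other cell classes are not drawn. Among the lists drawn, the Cnr1 group genes are lowest over all members (−0.55) and the Lamp5 group genes are highest in Dlx members (0.53).

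Receptor lists had genes in both directions. GABA-A receptor subunits had 7 genes higher and 5 lower (median 0.01) and glutamate receptor subunits 9 and 7 (0.02), and in Dlx members the medians were −0.06 and 0.06. Within the latter list Gria3 (0.77, and 0.49 in Dlx members) and the metabotropic receptor gene Grm8 (0.74 and 0.67) were the highest with tomatidine. The serotonin and acetylcholine receptors had 4 higher and 7 lower (−0.06, and −0.17 in Dlx members). The lowest was Htr1a, an inhibitory serotonin receptor, with 50.6 and 22.2 CPM over all members (−1.19, −1.44 to −0.94) and 57.1 and 17.3 CPM in Dlx members (−1.72), where 1 cell held 14.0% and 16.1% of its UMIs. Peptide receptors had 6 higher and 8 lower (−0.17, and −0.01 in Dlx members), and in both sets Npy2r (0.35, and 0.74 in Dlx members) and the somatostatin receptor gene Sstr1 (0.58 and 0.55) were higher while the opioid receptor genes Oprd1 (−0.88 and −1.11) and Oprm1 (−0.46 and −0.57) were lower. The 9 endocannabinoid genes had a median of 0.00 (−0.0071 in Dlx members), and Mgll, which degrades 2-arachidonoylglycerol, had 166 and 213 CPM in Dlx members (0.36). The 7 genes of GABA synthesis, packaging and uptake had a median of 0.02 (−0.0037 in Dlx members), and without Gad1 and Gad2, which the rule used, −0.09.

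Pvalb, Syt2 and Vamp1, genes of fast-firing neurons, differed between the libraries over all members and not in Dlx members in the same way. Pvalb had 58.3 CPM in control members and 290 with tomatidine (log2 2.32), the fast synaptotagmin gene Syt2 22.3 and 122 CPM (2.44) and Vamp1 217 and 439 CPM (1.02). In Dlx members the same genes had ratios of −0.89, 0.20 and −0.46. A single tomatidine cell held 44.7% of the Pvalb UMIs. The 22 genes of synaptic release had 15 higher and 7 lower (median 0.07), and 13 and 9 in Dlx members (0.03), and the calcium-binding proteins had 1 higher and 7 lower (−0.22, and −0.20 in Dlx members). Of the neuropeptide genes 10 were higher and 6 lower (0.10, and 0.15 in Dlx members).

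Stress and activity lists had small medians over all members, and smaller ones in Dlx members for all but the immediate early genes. The immediate early genes had 11 higher and 4 lower (median 0.12, and 0.18 in Dlx members). Fos had 53.3 and 52.8 CPM in Dlx members, and the largest ratio, that of Nr4a2 (3.91 and 22.7 CPM), rested to 40.2% on 1 tomatidine cell. The integrated stress response genes had 5 higher and 12 lower (−0.17, and −0.02 in Dlx members), with Atf4, its central factor, at 46.1 and 45.9 CPM. The interferon response genes had 5 higher and 15 lower (−0.17), from low counts, and −0.13 in Dlx members. The 11 respiratory chain genes of mitochondrial DNA were all higher over all members (median 0.20), but 8 were higher and 3 lower in Dlx members (0.03), and the median was −0.020 with equal weight for each cell and −0.22 in members with at most 6000 genes, so the data give no single direction.

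Genes of senescence had few UMIs per member. Cdkn1a, the p21 gene of the cell cycle arrest that the study followed (chr17:29090976-29100727, plus), had a UMI in 28 of 176 control members (15.9%, 10.8 to 22.2) and 36 of 205 tomatidine members (17.6%, 12.6 to 23.5), a difference of 1.65 points (−6.01 to 9.09). In CPM it went the other way, with 16.8 and 11.9 (log2 −0.49, −0.88 to −0.11). In Dlx members the ratio was −0.22 (−0.63 to 0.19) and in members with at most 6000 genes 0.36 (−1.24 to 2.11). Both of these intervals include 0, so the data give no single direction. Oligodendrocytes had a Cdkn1a UMI in 5.77% and 4.19% at their lower depth, and after thinning to 2000 UMIs the shares were 2.51% and 1.96% in members against 1.55% and 1.18% in oligodendrocytes. By group the shares were 11.8% and 5.13% in the Vip, 11.5% and 2.44% in the Lamp5 and 18.4% and 26.2% in the Cnr1 group, where 17.5% and 37.7% of the cells were Gata/Tal1 members. In Dlx members the share was 14.9% and 16.3%, with 12.1% and 5.41% in the Vip, 4.55% and 0% (0 of 33 cells, exact interval up to 10.6%) in the Lamp5 and 18.5% (11.1 to 27.9) and 28.4% (18.5 to 40.1) in the Cnr1 group. In those Cnr1 cells the level of Cdkn1a went the other way, with 24.6 and 22.9 CPM, so no order of the libraries is read from the shares. Cdkn2a, the p16 gene, was seen in 3 control members (1.70%) and 1 tomatidine member (0.488%), of which 2 and 0 were Dlx members. After thinning to 2000 UMIs the shares of cells with a Cdkn2a UMI were 0.345% and 0.0234% in members against 0.450% and 0.377% in oligodendrocytes. From so few UMIs no Cdkn2a expression in members is read, and the part of free RNA in them was not tested. No Cdkn2b UMI was found in any member. The 12 senescence and p53 target genes with 20 or more UMIs had 5 higher and 7 lower and a median of −0.03 (0.04 in Dlx members). None of them reached 1.5-fold, as was true of most genes (2.12% were higher and 1.54% lower by that much), so the list is not set apart by it.

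Markers of other cell classes were present in the members and differed between the libraries. The 7 oligodendrocyte genes counted summed to 1299 CPM in control and 1138 with tomatidine, all 7 were lower with tomatidine, none was at 0, and Mbp had the most UMIs among them (375 and 365 CPM). In 33 control and 29 tomatidine members they reached 20 UMIs per 10000. The 8 excitatory neuron genes summed to 487 and 629 CPM, of which Camk2a had 246 and 313, with 7 and 13 members at that level. The 7 astrocyte genes summed to 674 and 647 CPM, led by Slc1a2, and the 5 microglia genes counted to 130 and 93.7 CPM, with C1qa highest among them, all 5 lower with tomatidine. The genes of oligodendrocyte precursors summed to 362 and 315 CPM, led by Cspg5, and those of endothelial and mural cells to 108 and 62.4 CPM, led by Rgs5 in control and Vtn with tomatidine. The choroid plexus and ependymal genes summed to 146 and 20.4 CPM, of which Ttr, the transthyretin gene, had 121 and 11.3, and Ttr had a UMI in 90.3% of control and 27.3% of tomatidine members and in 85.8% and 17.5% of oligodendrocytes. Ccdc153 and Tmem212 of that list were at 0 with tomatidine. The 6 Cajal-Retzius genes summed to 571 and 642 CPM and include Ndnf and Reln, which Lamp5 cells also express, and the 8 genes of thalamic or other subcortical neurons summed to 263 and 325 CPM, led by Tcf7l2. In Dlx members the sums were 1097 and 965 CPM for oligodendrocyte, 518 and 718 for excitatory neuron, 663 and 795 for astrocyte, 133 and 102 for microglia and 145 and 18.0 for choroid plexus genes, and 117 and 96.9 for the thalamic or other subcortical list, in which tomatidine had the higher sum over all members. The parts of free RNA, of doublets and of such cells in the ratios above were not tested. The rule takes out no doublets, and without members that held 20 or more UMIs per 10000 of another class's markers, 126 control and 156 tomatidine members remained and the medians of the Cnr1 group genes and the CGE factors were −0.35 and −0.16.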

How the data were processed

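Probe-based single-cell RNA-seq (fixed RNA profiling) of aged mouse hippocampus was analysed. The deposited values are UMI counts for each cell and each of 19059 gene identifiers, made by the authors with Cell Ranger (8.0.0 in the submitters' processing notes, 7.1.0 in the matrix headers) on mm10. The deposited matrices are not normalized (the authors normalized counts later, for their own clustering). Symbols shared by several identifiers (6) were not summed. Cells were chosen by the stated UMI limits, with no clustering and no cell annotation. The members, gene lists and rules were chosen with earlier results of these data known.

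UMIs were summed over the cells of a library and divided by all UMIs of those cells (CPM). With 1 pooled library per group no test was run. Intervals are exact Poisson for sums, exact conditional binomial for ratios, Clopper-Pearson for shares and Newcombe for differences, at 95%, and cover counting error only. Genes in lists needed 20 UMIs over both libraries and genes in rankings 100. Named genes were those of the rule and lists, the 8 highest and 8 lowest ratios between libraries without a cell holding over 10% of a gene's UMIs in either library, and the 10 leading genes of each group and beside each MGE class, taken by the library with the smaller ratio. Cells were thinned to 2000 UMIs for shares. TMM factors (edgeR 4.0.16 in R 4.3.3) served as an alternative scale, and were 0.996 and 1.00. Coordinates are GENCODE M21 gene spans. The scripts ran on Python 3.11.15 with pandas 2.3.3 and numpy 2.4.6 for sums, scipy 1.17.1 for intervals and matplotlib 3.10.9 for plots, and the interval code was tested on simulated data. Alternatives covered depth, the rule's limits, the study's thresholds, doublet markers, weighting of cells and count minimums. The split by Dlx and Gata/Tal1 genes, the removal of the deepest member and lists without the rule's genes were added after the data were seen. A few genes of the lists and rankings are not reported here, and the lists were counted without them.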

Additional observations from a re-analysis of the deposited data

How the results depend on the processing

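Each group is 1 pooled library, so no setting here stands for replication. No paired analysis was possible because each group has 1 library. Of 385 values of the main results recomputed under alternatives, 352 moved by less than their counting interval or 1.5-fold, 30 moved further and 3 reversed, and of 1094 values of single genes 766 stayed within their interval, 309 moved further and 19 reversed. A change of sign was counted as reversed only where the main interval left out equal levels, and other changes of sign were not. The median of the Vip group genes, −0.25 over all members and 0.62 with at most 6000 genes, was counted as moved. So was that of the CGE factors, −0.06 and 0.27. The interval of a list median is the median of its genes' limits and not an interval of the median itself. By this rule TMM factors and the minimum of 5000 UMIs per cell reversed none. The removal of the deepest member and the limit of 10 UMIs for Vip, Lamp5 and Cnr1 also reversed none. Where a value did not hold, the cause was not tested.

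With Dlx members only, 143 genes were 1.5-fold higher. The list medians there were 0.15 for CGE factors, −0.090 for MGE genes (−0.47 without Lhx6, a gene of the rule), 0.53 for Lamp5 genes, −0.18 for Cnr1 genes and 0.027 for mitochondrial genes. Of the ratios followed here Adarb2 (0.12), Cck (0.15) and Npy (0.22) reversed. Other genes changed sign too, among them Pvalb (2.32 to −0.89), Vamp1 (1.02 to −0.46) and Slc4a2 (0.083 to −0.81). With at most 6000 genes per cell only 48 control and 56 tomatidine members were left, 85 genes were higher and 102 lower, and the difference in the share of Gata/Tal1 cells was 1.49 points (−7.70 to 10.2) among members and 28.3 points among Gad cells. The value among members rests on the few Gata/Tal1 members left under that limit. There the list medians were 0.27 for CGE factors, 0.051 for MGE genes, 0.62 for Vip genes, −0.41 for Cnr1 genes, 0.52 for immediate early genes and −0.22 for mitochondrial genes. The ratios that reversed there were Epb41 (−1.01), Mapk12 (−0.37), Cacng5 (1.10), Cntnap3 (0.21), Serpine2 (1.57), Kirrel (−0.0018), Neurl1b (−0.57), Cdkn1a (0.36), Adarb2 (0.18), Npy (0.0047), Npas1 (0.053) and Htr3a (0.73), and the Vip group's Nr2f2 over the other groups was −0.065.

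With the study's other thresholds 150 genes were higher, the medians were −0.23 for CGE factors, −0.51 for MGE genes and −0.73 for Cnr1 genes, and Tac2 (−0.51) and Ndnf (0.34) reversed. Without members holding other-class markers the medians were −0.11 for GABA genes and −0.35 for Cnr1 genes. With equal weight for each cell the medians were 0.098 for GABA genes, −0.051 for MGE genes and −0.020 for mitochondrial genes. The mitochondrial median was 0.14 with Adarb2 at 5 or more UMIs and 0.13 without each gene's top cell. Without the genes of the selection rule the medians were −0.091 for GABA genes, −0.15 for Vip genes and −0.34 for MGE genes over all members. In Dlx members these 3 medians were −0.044, 0.061 and −0.47. With the same mix of the 3 groups Calb2 was 0.0059. At a minimum of 300 UMIs, 81 genes were higher and 78 lower, and at 50 UMIs 294 were lower, since the number of genes counted differs.

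Depth limits the scarce genes most. Senescence and interferon genes had few UMIs per member, groups had as few as 22 cells, and 1 cell held most UMIs of a gene in some sums.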
